A study of Mus musculus with 7 samples.

Results

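The 10 genes described here encode tubulins, and they were chosen by symbol from the 25912 entries that every table lists. The rule uses symbols and no measured value, but the genes were proposed with earlier results of these data known. They are 4 alpha-tubulin genes (Tuba1a, Tuba1b, Tuba1c and Tuba4a), 5 beta-tubulin genes (Tubb2a, Tubb2b, Tubb4b, Tubb5 and Tubb6) and 1 gamma-tubulin gene (Tubg1). The other 10 tubulin genes looked up, among them Tubb3 and Tubg2, were used for comparison. Transcripts were measured by Smart-seq2 in 7 libraries of 10 mouse oocytes each. GV oocytes, immature oocytes with an intact germinal vesicle, gave 2 libraries, MII oocytes with DMSO gave 3, and MII oocytes with BYBX gave 2. The animals were C57BL/6 females, 4 weeks old and given 5 IU of PMSG, and oocytes were taken 44 h later at the GV stage. MII oocytes are arrested in the second meiotic metaphase, and the study cultured oocytes in M16 medium and examined this stage at 16 h. The sources used here give no culture time for these libraries. The paper reports that polar body release fell with rising BYBX and that few treated oocytes reached MII, with abnormal spindles. How far the BYBX libraries matched those with DMSO in stage is not given, so stage and treatment cannot be told apart. BYBX is a small molecule that binds and stabilises RNA G-quadruplexes, four-stranded folds of guanine-rich RNA, and DMSO is its solvent. The labels call the genotype of GV and of MII with DMSO "Control" and that of MII with BYBX "Treat", and no allele is named. They list no treatment for GV, whereas the methods say that GV controls received DMSO too, and the labels name no dose of BYBX, while 1 μM is named for the analysis of translation efficiency that drew on these RNA levels.

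Microtubules are hollow filaments built from dimers of 1 alpha- and 1 beta-tubulin, and gamma-tubulin starts new filaments from a ring-shaped complex. Mouse oocytes build the meiotic spindle without centrioles, from many small organising centres that carry gamma-tubulin. Cells keep the amount of tubulin mRNA in check by autoregulation, in which the factor TTC5 recognises the first residues of a new alpha- or beta-tubulin chain as it leaves the ribosome and the mRNA is then degraded. Fully grown oocytes no longer transcribe, and many of their stored mRNAs are removed between the GV and the MII stage.

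The stretch that TTC5 reads is written in the first 4 codons, and the coding starts of 9 members are shown to compare it between the classes (Tubb6 was left out). Each line gives the first 30 coding bases from the GENCODE M21 transcripts on GRCm38, the assembly also called mm10, 5′ to 3′, with the first 12 bases, which are the first 4 codons, in capitals.
Tuba1a: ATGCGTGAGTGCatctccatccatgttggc
Tuba1b: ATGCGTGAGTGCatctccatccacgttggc
Tuba1c: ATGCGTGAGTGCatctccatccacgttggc
Tuba4a: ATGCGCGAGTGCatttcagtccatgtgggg
Tubb2a: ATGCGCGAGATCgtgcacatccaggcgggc
Tubb2b: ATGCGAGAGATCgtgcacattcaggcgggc
Tubb4b: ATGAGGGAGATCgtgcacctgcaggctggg
Tubb5: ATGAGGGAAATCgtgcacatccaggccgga
Tubg1: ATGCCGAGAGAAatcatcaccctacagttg
All 9 alpha and beta members, Tubb6 included, began with ATG, then CGN, AGA or AGG, then GAA or GAG, and then TGC or TGT (alpha) or an ATA, ATC or ATT codon (beta). Among the coding starts of 21509 genes, 16 (0.0744%) held this run of 4 codons, and these were the 16 alpha- and beta-tubulin genes of the annotation. Tubg1 and Tubg2 did not hold it. With the first 3 codons alone, 42 genes (0.195%) matched.

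Several members have near-identical copies, so their separate values are less certain than those of the rest. Over the aligned coding bases, Tuba1b and Tuba1c were 98.4% identical, Tuba1a and Tuba1b 98.3%, Tuba1a and Tuba1c 97.6%, Tubb2a and Tubb2b 96.5%, and Tubg1 and Tubg2 93.3%. Tuba4a was 85.3% to 85.9% identical to the other alpha members. The reads were pairs of 150 bases and only uniquely mapped reads were kept, so the share of 150-base windows of a transcript that occur exactly in transcripts of another gene was computed. It was 54.7% for Tuba1a, 57.9% for Tuba1b and 46.7% for Tuba1c. These shares count windows found in Gm49450, a gene model that overlaps Tuba1a and Tuba1b on the same strand. Where such windows are the same genomic bases, a read from them can still map uniquely. The shares of Tuba1a and Tuba1b may therefore overstate what the rule on unique mapping removed, and by how much was not tested. Tubb2a and Tubb2b shared 27.9% and 20.1%, Tubb4b shared 16.8% with a pseudogene of its own, and Tubg1 shared 0.907%. Tuba4a, Tubb5 and Tubb6 had no shared window of this length, and neither had Tubb3. The plot of shared windows sets these shares side by side.

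**Figure D1:**
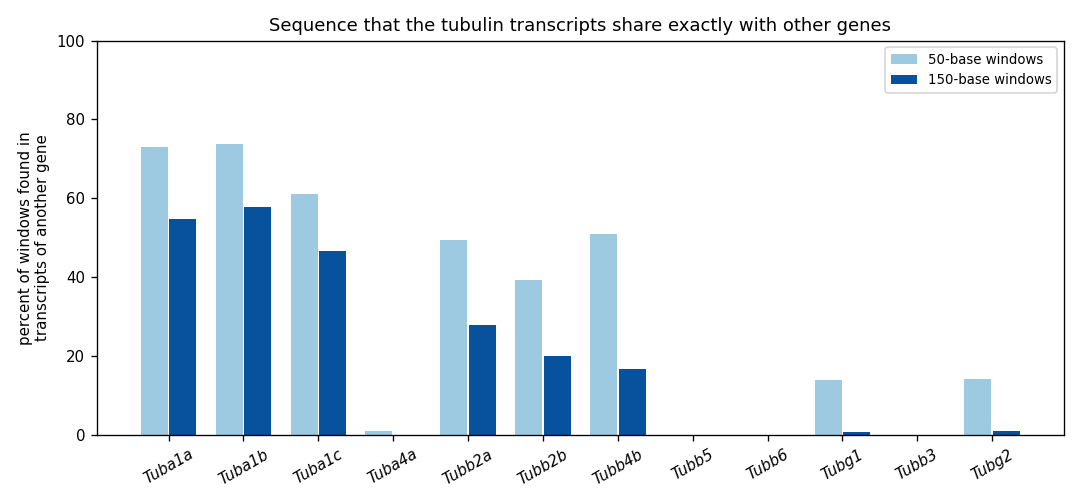
Percent of the 50-base (light) and 150-base (dark) windows of each transcript that occur exactly in transcripts of another gene, for the 10 members and for Tubb3 and Tubg2. The 3 Tuba1 genes stand highest, with 46.7% to 57.9% of the 150-base windows, and Tuba4a, Tubb5, Tubb6 and Tubb3 have none at this length. Windows shared with Gm49450, which overlaps Tuba1a and Tuba1b on the same strand, are counted too.

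The libraries differed in the sum of all their values, since the authors scaled FPKM (fragment counts set relative to transcript length and library size) to an RNA spike-in added to each lysate. The sum ran from 402114 to 489569 FPKM in GV, from 109732 to 127254 in MII with DMSO and from 201482 to 246710 in MII with BYBX. Read depth is unknown from these values, so only the spread between 2 or 3 libraries shows how precise a level is, and the labels do not say whether these came from separate animals or cultures, so a p-value measures only the spread between these libraries. Of 10 oocyte markers looked up (such as Zp3, Gdf9 and Bmp15), all had a group mean of at least 1 FPKM in GV and in MII with BYBX and 9 had in MII with DMSO, with a summed level of 10360 to 12927 FPKM in GV, 1575 to 1666 in MII with DMSO and 4845 to 5426 in MII with BYBX. The 10 markers of granulosa and cumulus cells, which also hold tubulin mRNA, summed to 9.11 to 16.6 FPKM in GV, 2.27 to 2.61 in MII with DMSO and 3.82 to 4.31 in MII with BYBX. Of these, 4, 1 and 2 had a group mean of at least 1 FPKM, in the same order, and Ptx3 was listed at 0 in all 7 libraries. Markers of erythrocytes summed to at most 1.13 FPKM and those of leukocytes to at most 1.77. The follicle cell markers were thus highest in GV, as the tubulin genes were, and their part in the tubulin values was not tested. Each library held 10 oocytes, but for follicle cells, whose number is not given, fewer cells and less RNA per cell cannot be told apart. Since reverse transcription began at the poly(A) tail, loss of the tail and loss of the mRNA cannot be told apart either.

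The first comparison, MII with DMSO against GV, asks how tubulin mRNA changes during maturation. All 10 members passed the filter of at least 1 FPKM (mean of the 3 group means), and all 10 were lower in MII with DMSO (limma on log2(FPKM + 1), adjusted p under 0.05 over 9202 entries). The background was high, since 88.3% of all tested entries were lower and 0.272% higher. The members differed from it in size rather than in direction, with a median log2 fold change of -4.19 against -1.83 for all tested entries. These medians compare genes of unlike level, since every member but Tuba1a exceeded on average at least 79.4% of tested entries in GV. The pseudocount bounds the fall of weak transcripts. The median of all entries was -2.53 with a pseudocount of 0.1 FPKM and -2.22 with a filter at 5 FPKM. This limit also holds for the medians given below. Every member's libraries were without overlap between these groups, and 92.5% of all tested entries likewise lay wholly below GV and 0.315% wholly above.

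In the second comparison, MII with BYBX against MII with DMSO, all 10 members were higher with BYBX, against 65.2% of all tested entries that were higher and 0.0326% that were lower. In no member did the libraries overlap, and 79.0% of all entries lay wholly above DMSO and 0.293% wholly below. The median log2 fold change was 2.50 for the members and 0.84 for all entries. In the third, MII with BYBX against GV, 9 of the 10 were lower with BYBX, against 69.2% of all entries that were lower and 0.315% that were higher. The libraries of all 10 lay wholly below GV, as did those of 82.3% of all entries, and 0.848% lay wholly above. The median was -1.37 for the members and -0.99 for all. These comparisons share libraries and are not independent of each other.

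**Figure D2:**
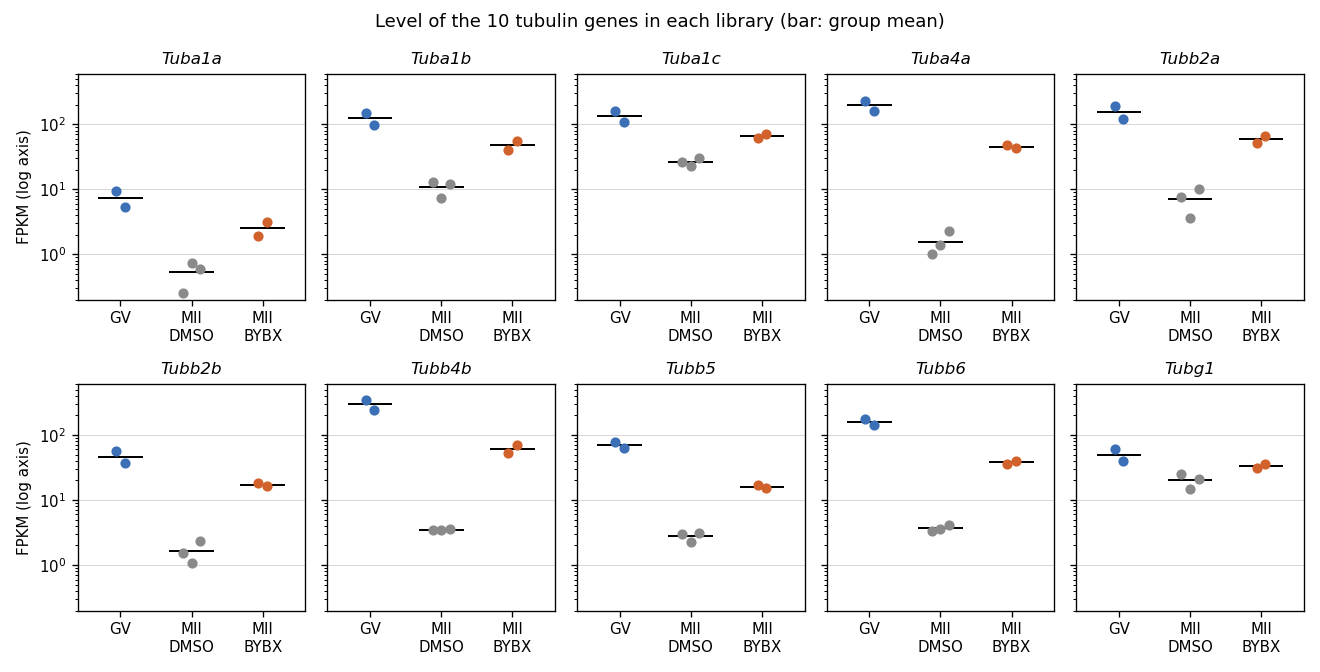
FPKM (log axis) of the 10 tubulin genes in the 2 GV libraries (blue), the 3 libraries of MII with DMSO (grey) and the 2 of MII with BYBX (orange), with bars at the group means. In each panel the GV points lie highest, the DMSO points lowest and the BYBX points between, with the widest gap for Tuba4a (195, 1.57 and 45.1 FPKM on average) and the narrowest for Tubg1 (49.9, 20.3 and 33.9 FPKM).

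Among the alpha-tubulin genes, Tuba4a lost the most. It lies at chr1:75214228-75219865 on the minus strand (GRCm38), has 4 exons and overlaps Stk16 on the other strand, and its product is made without the C-terminal tyrosine. Its level was 228.5 and 162.4 FPKM in the GV libraries, 1.01, 1.38 and 2.31 FPKM in MII with DMSO, and 47.4 and 42.7 FPKM in MII with BYBX. The 3 groups were far apart, and the GV mean was 125 times that of MII with DMSO. On the log2(FPKM + 1) scale Tuba4a fell by 6.27 ± 0.28 (SE) from GV to MII with DMSO (limma adjusted p = 3.83e-10), a stronger fall than in all but 0.663% of tested entries. With BYBX it was 28.8 times the DMSO mean, a log2 fold change of 4.196 ± 0.28 (limma adjusted p = 7.48e-08), higher than in 99.0% of entries. It still stood at 23.1% of the GV mean, and the log2 fold change against GV was -2.07 ± 0.31 (limma adjusted p = 0.000105).

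Tuba1a, Tuba1b and Tuba1c lie close together on chromosome 15, and reads common to the copies may be missing from their levels. Tuba1b, a broadly expressed alpha-tubulin (chr15:98931425-98934565, minus strand, 4 exons), was at 149.7 and 98.8 FPKM in GV, 12.7, 7.41 and 12.2 FPKM in MII with DMSO, and 40.2 and 55.2 FPKM in MII with BYBX. Tuba1c, also broadly expressed (chr15:99029891-99038110, plus strand, 4 exons), was at 157.5 and 108.3 FPKM in GV, 25.8, 23.1 and 30.2 FPKM in MII with DMSO, and 62.0 and 71.8 FPKM in MII with BYBX. Tuba1a, best known from developing neurons (chr15:98949837-98953703, minus strand, 4 exons), had by far the lowest level of the members, with 9.28 and 5.41 FPKM in GV, 0.258, 0.741 and 0.601 FPKM in MII with DMSO, and 1.88 and 3.11 FPKM in MII with BYBX. The groups did not overlap for any of the 3 genes, and the BYBX libraries lay between the others. The gene model Gm49450, named above, overlaps both Tuba1a and Tuba1b on the same strand, so some of their shared windows may not have cost them reads.

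From GV to MII with DMSO, the log2 fold change was -3.41 ± 0.30 for Tuba1b (limma adjusted p = 1.14e-07). For Tuba1a it was -2.42 ± 0.26 (limma adjusted p = 7.26e-07), and -0.11 when the libraries were centred on the median of all tested entries. At these low levels the size depends on the pseudocount, and with 0.1 FPKM in place of 1 the Tuba1a values were -3.59 for MII with DMSO against GV and 2.08 for BYBX against DMSO. For Tuba1c it was -2.28 ± 0.26 (limma adjusted p = 1.77e-06), and the sign turned to 0.03 with that centring. Tuba1c thus kept 19.8% of its GV mean, Tuba1b 8.69% and Tuba1a 7.26%, whereas Tuba4a kept 0.801%. With BYBX against DMSO, Tuba1b rose by 2.06 ± 0.30 (limma adjusted p = 4.97e-05) and Tuba1c by 1.32 ± 0.26 (limma adjusted p = 0.000657, or 0.04 and not past the threshold after centring). Tuba1a rose by 1.18 ± 0.26 (limma adjusted p = 0.00122), with a turned sign of -0.10 after centring. The 3 Tuba1 genes were also summed to 1 entry, which does not recover reads dropped as shared among them or with genes outside the sum. This entry gave -2.76 ± 0.27 for MII with DMSO against GV, 1.61 ± 0.27 for BYBX against DMSO and -1.15 ± 0.30 for BYBX against GV, each past the threshold (the largest limma adjusted p of these was 0.00396).

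Against GV, the BYBX-treated libraries held 38.4% of the Tuba1b mean, 50.4% of the Tuba1c mean and 34.0% of the Tuba1a mean. The log2 fold changes were -1.35 ± 0.33 (Tuba1b, limma adjusted p = 0.00274), -0.96 ± 0.29 (Tuba1c, limma adjusted p = 0.00963) and -1.24 ± 0.28 (Tuba1a, limma adjusted p = 0.00167). For Tuba1c the sign turned under both other scalings, to 0.02 with every library at the same total FPKM and to 0.07 with centring. Without GV 1, the GV library with the higher values, the calls of Tuba1b (limma adjusted p = 0.0536) and Tuba1c (limma adjusted p = 0.0800) were lost, and that of Tuba1c was also lost without BYBX 1 (limma adjusted p = 0.0562).

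The 5 beta members together kept 2.56% of their summed GV mean in MII with DMSO, against 8.53% for the 4 alpha members. Over all listed genes of each class the order was the other way, with 10.7% for beta and 9.05% for alpha. Tubb4b, a widely expressed beta-tubulin at chr2:25222160-25224702 (minus strand, 4 exons, overlapping Fam166a on the other strand), was the most abundant member in GV, at 350.1 and 244.1 FPKM. It was at 3.40, 3.50 and 3.60 FPKM in MII with DMSO, where the libraries lay within a narrow range, and at 53.2 and 70.7 FPKM in MII with BYBX. The GV mean was 84.9 times the DMSO mean, and the log2 fold change was -6.03 ± 0.26 (limma adjusted p = 3.24e-10). The BYBX mean was 17.7 times the DMSO mean, with a log2 fold change of 3.79 ± 0.26 (limma adjusted p = 8.43e-08), and 20.9% of the GV mean, with -2.23 ± 0.29 (limma adjusted p = 6.86e-05). In the plot of log2 fold changes, Tubb4b and Tuba4a stand apart from the other members in the first 2 comparisons.

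Tubb6, the class V beta-tubulin, lies on chromosome 18. It was at 178.7 and 141.6 FPKM in GV, 3.38, 3.55 and 4.10 FPKM in MII with DMSO, and 35.97 and 40.2 FPKM in MII with BYBX. Tubb5, a widely expressed beta-tubulin (chr17:35833921-35838306, minus strand, 4 exons), was at 77.1 and 62.3 FPKM in GV, 2.99, 2.26 and 3.09 FPKM in MII with DMSO, and 17.1 and 15.2 FPKM in MII with BYBX. These genes share no 150-base window with another gene, and in both the groups were apart. Tubb6 fell by 5.10 ± 0.24 from GV to MII with DMSO (limma adjusted p = 5.05e-10) and Tubb5 fell by 4.22 ± 0.24 (limma adjusted p = 1.80e-09). With BYBX against DMSO they were higher by 3.06 ± 0.24 (Tubb6, limma adjusted p = 2.38e-07) and 2.19 ± 0.24 (Tubb5, limma adjusted p = 4.14e-06). Against GV they were lower with BYBX, by a log2 fold change of -2.04 ± 0.27 each (limma adjusted p = 6.92e-05 for Tubb6 and 6.88e-05 for Tubb5), at 23.8% and 23.2% of the GV mean.

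Tubb2a and Tubb2b are neighbours on the minus strand of chromosome 13 and are known as abundant isotypes of neurons. Tubb2a (chr13:34074274-34078007, 4 exons) was at 191.8 and 121.2 FPKM in GV, 7.69, 3.56 and 10.0 FPKM in MII with DMSO, and 51.0 and 65.4 FPKM in MII with BYBX. Tubb2b (chr13:34126748-34130466, 4 exons) was at 55.8 and 36.9 FPKM in GV, 1.51, 1.07 and 2.35 FPKM in MII with DMSO, and 18.0 and 16.3 FPKM in MII with BYBX. In both genes the second DMSO library was the lowest of all 7, and the groups did not overlap. The log2 fold changes from GV to MII with DMSO were -4.34 ± 0.36 (Tubb2a, limma adjusted p = 5.19e-08) and -4.16 ± 0.28 (Tubb2b, limma adjusted p = 6.39e-09). With BYBX against DMSO they were 2.95 ± 0.36 (Tubb2a, limma adjusted p = 8.74e-06) and 2.81 ± 0.28 (Tubb2b, limma adjusted p = 1.42e-06). Against GV they were -1.38 ± 0.39 (Tubb2a, limma adjusted p = 0.00644) and -1.36 ± 0.30 (Tubb2b, limma adjusted p = 0.00146), and the call of Tubb2a was lost without GV 1 (limma adjusted p = 0.119). The sum of both genes as 1 entry gave -4.44 ± 0.35, 3.05 ± 0.35 and -1.39 ± 0.38 in the same order.

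Tubg1, a gamma-tubulin gene of 11 exons at chr11:101119938-101126419 (plus strand), changed the least. It was at 60.3 and 39.4 FPKM in GV, 25.2, 14.8 and 20.8 FPKM in MII with DMSO, and 31.6 and 36.2 FPKM in MII with BYBX. The groups were apart but close, and MII with DMSO held 40.7% of the GV mean. The log2 fold change to MII with DMSO was -1.26 ± 0.29 (limma adjusted p = 0.00104), smaller in size than the median of all entries, and it turned to 0.57 with every library at the same total FPKM and to 1.05 with centring, where it was called higher (limma adjusted p = 0.00398). With BYBX against DMSO it was 0.74 ± 0.29 (limma adjusted p = 0.0372), and it turned to -0.12 and -0.54 under these scalings. That call was also lost without any one of DMSO 2, DMSO 3, BYBX 1 or BYBX 2 (limma adjusted p of 0.0541 to 0.159), and without DMSO 2 the log2 fold change was 0.54. Against GV, the difference of -0.52 ± 0.32 did not pass the threshold (limma adjusted p = 0.160), and it was 0.45 and 0.51 under the other scalings.

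**Figure D3:**
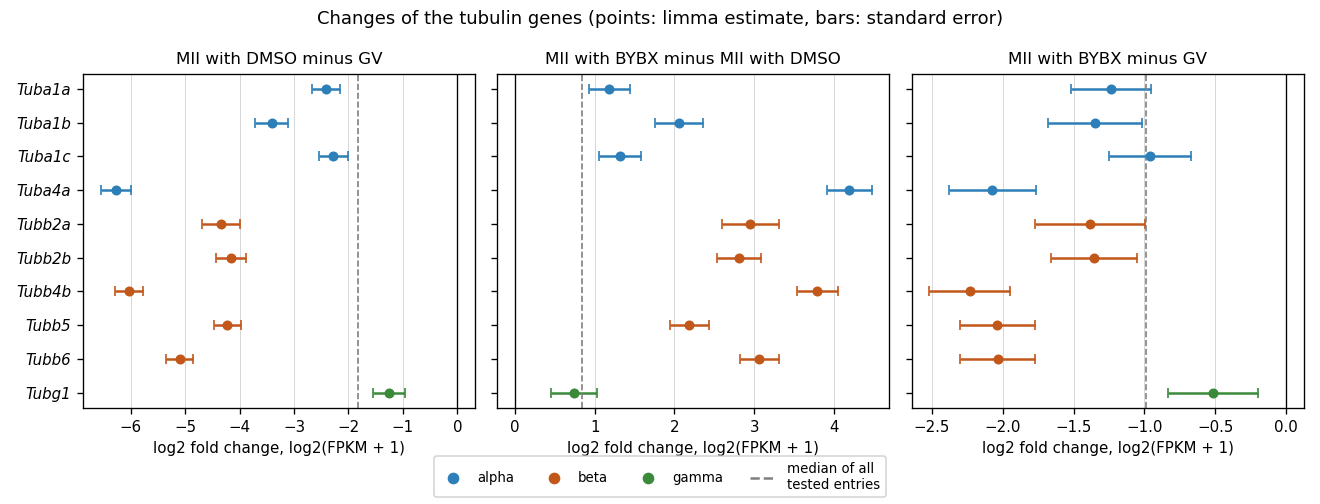
Log2 fold change on the log2(FPKM + 1) scale (points, limma estimates, with bars of 1 standard error) of the alpha (blue), beta (orange) and gamma (green) tubulin genes in the 3 comparisons, with a solid line at 0 and a dashed line at the median of all tested entries (-1.83, 0.84 and -0.99). Tuba4a and Tubb4b lie farthest from the dashed line in the first 2 panels, while Tuba1a, Tuba1c and Tubg1 lie close to it and are the genes whose sign turned under another scaling (Tuba1a with BYBX against DMSO, Tuba1c in both comparisons with GV, Tubg1 in all 3).

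The scale of the libraries matters for these directions, because most of the transcriptome moved the same way. Setting every library to the same total FPKM moved the median of all entries from -1.83 to -0.56 for MII with DMSO against GV, from 0.84 to 0.34 for BYBX against DMSO, and from -0.99 to -0.17 for BYBX against GV. Centring moved them to 0.47, -0.44 and 0.04. At the same total, 8 members fell from GV to MII with DMSO (49.5% of all entries lower and 23.3% higher), 8 rose under BYBX relative to DMSO (39.9% higher and 8.22% lower), and 4 were below GV under BYBX (13.3% lower and 5.30% higher). After centring these counts were 7 (26.7% of all entries lower and 48.8% higher, Tubg1 among them), 7 (18.4% higher and 43.9% lower) and 4 (13.6% lower and 15.2% higher). Tuba4a, Tubb4b, Tubb5 and Tubb6 were called in the same direction in all 3 comparisons under all 3 scales. Tuba1b, Tubb2a and Tubb2b were so in the first 2 comparisons.

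The order of the members differed between the stages. FPKM is per length of transcript, but reads shared between copies were not kept. Genes with many shared windows, the Tuba1 genes above all, may therefore stand too low in the order. In GV the order was Tubb4b, Tuba4a, Tubb6, Tubb2a, Tuba1c, Tuba1b, Tubb5, Tubg1, Tubb2b and Tuba1a. Tubb4b stood above Tuba4a in both libraries with no overlap, while neighbours in the run from Tuba4a to Tuba1b overlapped, as did Tubg1 and Tubb2b. In MII with DMSO the order was Tuba1c, Tubg1, Tuba1b, Tubb2a, Tubb6, Tubb4b, Tubb5, Tubb2b, Tuba4a and Tuba1a, so that Tuba4a went from second place to ninth. Tuba1c and Tubg1 overlapped there, and both stood above the other members without overlap. Neighbours in the run from Tuba1b to Tubb4b overlapped too, as did those from Tubb5 to Tuba4a. The ninth place of Tuba4a was thus not resolved from the place of Tubb2b, which was higher in 2 of the 3 libraries. In MII with BYBX the order was Tuba1c, Tubb4b, Tubb2a, Tuba1b, Tuba4a, Tubb6, Tubg1, Tubb2b, Tubb5 and Tuba1a. Neighbours among the first 5 overlapped, as did Tubb6 with Tubg1 and Tubb2b with Tubb5.

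The place of a gene within its own library does not depend on the scale. Tuba4a exceeded 95.5% and 96.2% of the 9202 tested entries in the GV libraries, 39.8%, 44.5% and 54.7% in MII with DMSO, and 89.9% and 90.9% in MII with BYBX. Tubb4b exceeded 97.2% and 97.8% in GV, 63.7% to 65.0% in MII with DMSO, and 90.9% and 95.0% in MII with BYBX. Both dropped far down the order of transcripts in MII with DMSO and stood high in it with BYBX, though below their GV place. Their BYBX levels were 23.1% (Tuba4a) and 20.9% (Tubb4b) of the GV mean, and both were called below GV under all 3 scales. Tuba1c stayed between 90.5% and 95.1% in all 7 libraries. Tubg1 moved the other way, from 78.8% and 82.4% in GV to 86.1% to 92.1% in MII with DMSO, with 84.8% and 89.0% in MII with BYBX.

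**Figure D4:**
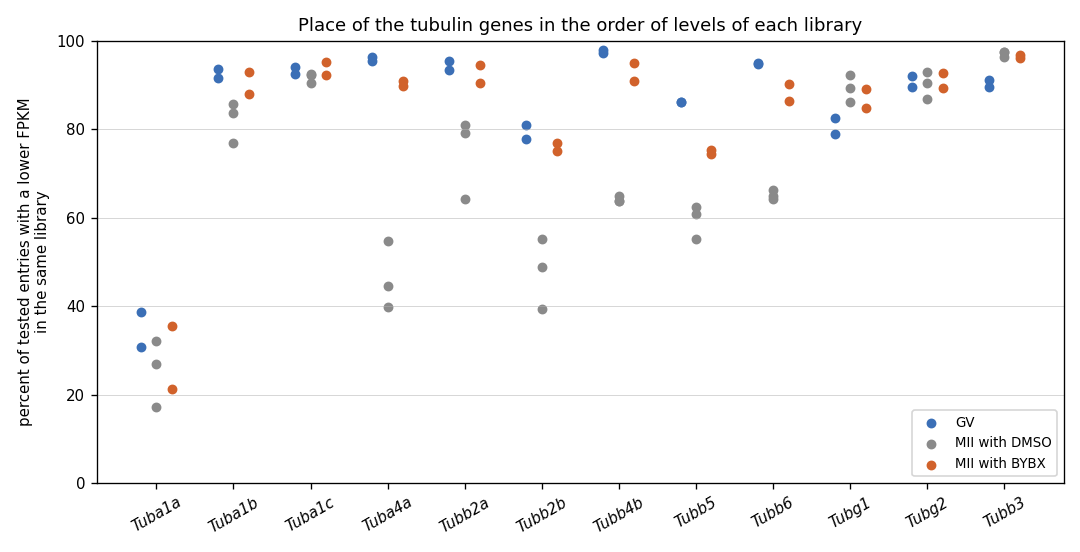
Percent of the 9202 tested entries with a lower FPKM in the same library, one point per library, for the 10 members and for Tubg2 and Tubb3. The grey points (MII with DMSO) of Tuba4a, Tubb2b, Tubb4b, Tubb5 and Tubb6 lie between 39.4% and 66.2%, below the GV (blue) and BYBX (orange) points of the same gene, while Tuba1c stays at 90.5% to 95.1%.

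The unequal changes altered the make-up of the tubulin transcripts. The 4 alpha members summed to 460 ± 120 FPKM (SD, n = 2) in GV, 39.2 ± 6.39 (n = 3) in MII with DMSO and 162 ± 15.0 (n = 2) in MII with BYBX. The 5 beta members summed to 730 ± 175, 18.7 ± 4.63 and 192 ± 23.0 FPKM. The ratio of alpha to beta was therefore 0.638 and 0.618 in the GV libraries, 2.10, 2.34 and 1.96 in MII with DMSO, and 0.864 and 0.831 in MII with BYBX. These ratios and shares do not depend on the scale of a library, and they are given as a description with no test. Reads dropped as shared between copies may lower some genes more than others, so a share or ratio within a library carries this limit too. All 10 members together took 0.254% and 0.298% of the summed FPKM of the GV libraries, 0.0496% to 0.0766% with DMSO, and 0.145% and 0.207% with BYBX.

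Within the alpha members, the share of Tuba4a was 41.9% and 43.3% in GV, 2.53%, 4.24% and 5.09% in MII with DMSO, and 31.3% and 24.7% in MII with BYBX. Tuba1c took the opposite course, with 28.9% in both GV libraries, 64.8%, 70.8% and 66.6% with DMSO, and 40.9% and 41.6% with BYBX. Tuba1b stayed between 22.7% and 32.0% in all libraries. Within the beta members, Tubb4b went from 41.0% and 40.3% in GV to 17.9%, 25.1% and 15.5% with DMSO, and it was at 30.4% and 34.0% with BYBX. Tubb2a was at 22.5% and 19.999% in GV, 40.5%, 25.5% and 43.3% with DMSO, and 29.1% and 31.5% with BYBX. The share of Tubb6 was 20.9% and 23.4% in GV, 17.8%, 25.5% and 17.7% with DMSO, and 20.5% and 19.3% with BYBX, so that the DMSO range held those of both other groups, which did not overlap each other.

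The picture of the beta class changes when all its listed genes are counted, because of Tubb3, which is no member. Tubb3, the class III beta-tubulin known as a marker of neurons, was at 117.6 and 82.1 FPKM in GV, 53.0, 78.2 and 79.1 FPKM in MII with DMSO, and 127.4 and 84.8 FPKM in MII with BYBX. It overlapped between GV and BYBX, and it did not pass the threshold in any comparison (log2 fold changes of -0.50 ± 0.29, 0.58 ± 0.29 and 0.08 ± 0.32, limma adjusted p of 0.118, 0.0943 and 0.832). Of the summed beta-tubulin FPKM, Tubb3 made up 12.1% and 11.9% in GV, 73.7%, 84.9% and 77.3% in MII with DMSO, and 42.1% and 29.0% in MII with BYBX. With all listed genes, the ratio of alpha to beta was 0.709 ± 0.018 in GV, 0.611 ± 0.126 in MII with DMSO and 0.699 ± 0.021 in MII with BYBX, so the high ratio at MII was a feature of the chosen members and not of the whole class. The coding start of Tubb3 holds the same 4-codon run as those of the alpha and beta members.

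**Figure D5:**
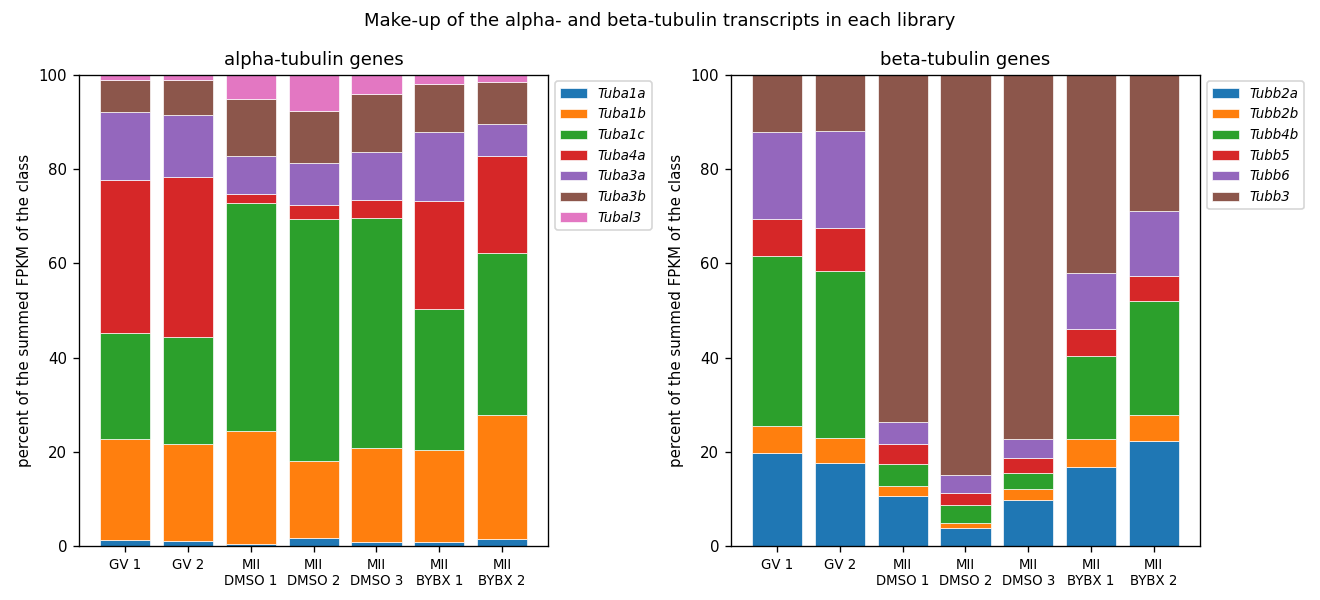
Percent of the summed FPKM of all listed alpha-tubulin genes (left) and beta-tubulin genes (right) taken by each gene in each of the 7 libraries, for genes of at least 1 FPKM in some group. Tubb3 fills 73.7% to 84.9% of the beta class in the 3 libraries of MII with DMSO against 11.9% and 12.1% in GV, and Tuba4a shrinks from 32.6% and 33.9% of the alpha class in GV to 1.89% to 3.73%.

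The gamma class had a second expressed gene, Tubg2. It was at 127.4 and 82.0 FPKM in GV, 27.8, 15.9 and 23.9 FPKM in MII with DMSO, and 45.1 and 53.7 FPKM in MII with BYBX, with log2 fold changes of -2.17 ± 0.30, 1.13 ± 0.30 and -1.04 ± 0.33 (limma adjusted p of 9.86e-06, 0.00453 and 0.0119). Tubg1 made up 32.1% and 32.5% of the gamma-tubulin FPKM in GV, 46.6% to 48.2% in MII with DMSO, and 41.2% and 40.3% in MII with BYBX. Set against the alpha members, Tubg1 was at 10.8 ± 0.380 per 100 FPKM in GV, 51.6 ± 10.3 in MII with DMSO and 20.9 ± 0.056 in MII with BYBX. Of the other tubulin genes, Tuba3a, a testis isotype, had the largest log2 fold change with BYBX over DMSO on the log2(FPKM + 1) scale, at 100.4 and 63.1 FPKM in GV, 4.28, 4.00 and 6.30 FPKM with DMSO, and 30.1 and 14.4 FPKM with BYBX. Its log2 fold change with BYBX against DMSO was 1.92 ± 0.33 (limma adjusted p = 0.000199), and the BYBX mean was 4.57 times the DMSO mean. For Tubd1, delta-tubulin, that ratio was larger, at 8.23. Of the 10 other tubulin genes, 7 were tested, and 6 fell from GV to MII with DMSO, 4 rose under BYBX relative to DMSO, and 5 were below GV under BYBX, with medians of -2.17, 1.13 and -1.03, near the 88.3%, 65.2% and 69.2% and the medians of all tested entries. Tubb1 was listed at 0 in every library.

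New tubulin chains are folded by prefoldin, the CCT chaperonin and the tubulin cofactors, and the genes of these machines were counted beside the shares of all tested entries given above (88.3% lower in MII with DMSO, 65.2% higher with BYBX over DMSO and 69.2% below GV with BYBX). All 8 CCT subunit genes fell from GV to MII with DMSO, stood higher under BYBX, and remained below GV there, with median log2 fold changes of -4.70, 2.77 and -1.81 against -1.83, 0.84 and -0.99 for all tested entries. Such counts are near those shares for the first comparison, and the medians are farther from 0. Cct5, the most abundant, was at 578.8 and 403.0 FPKM in GV, 2.35, 2.12 and 3.44 FPKM in MII with DMSO, and 99.5 and 104.3 FPKM in MII with BYBX. Its log2 fold change was -7.07 ± 0.27 for MII with DMSO against GV (limma adjusted p = 2.45e-10) and 4.84 ± 0.27 for BYBX against DMSO (limma adjusted p = 2.64e-08). Cct2 had means of 161, 4.05 and 36.1 FPKM in GV, MII with DMSO and MII with BYBX.

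Of 13 prefoldin and cofactor genes, 12 were tested. All 12 fell from GV to MII with DMSO, 11 rose under BYBX relative to DMSO and 9 were below GV under BYBX, with medians of -3.17, 1.88 and -1.28. These counts stand beside 88.3%, 65.2% and 69.2% of all tested entries, and the first and the third are close to them. Pfdn4, a prefoldin subunit, had means of 821, 184 and 376 FPKM in GV, MII with DMSO and MII with BYBX. Arl2, a small GTPase that works with the cofactors, had means of 245, 6.30 and 71.6 FPKM. Pfdn6, another prefoldin subunit, had 130, 1.60 and 47.5 FPKM, and its log2 fold change of 4.24 ± 0.44 with BYBX against DMSO was the largest of this list (limma adjusted p = 2.40e-06).

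Both genes of the autoregulation list were tested. Ttc5 encodes the factor that reads the alpha and beta starts shown above. Its level was 78.8 and 57.2 FPKM in GV, 0.249, 0.495 and 0.988 in MII with DMSO, and 15.5 and 18.9 in MII with BYBX. No group overlapped another, and the log2 fold changes were -5.46 ± 0.27, 3.55 ± 0.27 and -1.91 ± 0.29 (limma adjusted p of 6.06e-10, 1.62e-07 and 0.000130). Scaper, its partner, was at 11.1 and 9.37 FPKM in GV, 1.56, 2.03 and 1.47 with DMSO, and 4.37 and 2.45 with BYBX. It passed the threshold in all 3 comparisons, in the same directions. Of all tested entries, 88.3% were lower in MII with DMSO, 65.2% higher with BYBX over DMSO and 69.2% below GV with BYBX. Libraries lay wholly apart in these directions in 92.5%, 79.0% and 82.3% of all entries.

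Genes that act with gamma-tubulin were counted in the same way. Of 18 genes of the ring complex and its recruiters, 14 were tested, of which 13 fell from GV to MII with DMSO, 11 rose under BYBX relative to DMSO and 11 were below GV under BYBX, with medians of -1.996, 1.13 and -1.14, near the 88.3%, 65.2% and 69.2% and the medians of -1.83, 0.84 and -0.99 of all tested entries. Haus1, Haus3 and Haus4 encode subunits of augmin, which starts microtubules on the sides of others. Haus3 had means of 413, 35.5 and 130 FPKM, and Haus1 of 76.3, 3.18 and 28.1 FPKM. Haus4 had 91.8, 50.4 and 74.4 FPKM and fell from GV to MII with DMSO (log2 fold change -0.84 ± 0.27, limma adjusted p = 0.00927), but it did not pass the threshold with BYBX against DMSO (log2 fold change 0.57 ± 0.27, limma adjusted p = 0.0776) or against GV (-0.27 ± 0.29, limma adjusted p = 0.411).

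Of 15 genes of tubulin-modifying enzymes, 8 were tested, and 6 fell from GV to MII with DMSO, 3 rose under BYBX relative to DMSO and 4 were below GV under BYBX, with medians of -1.01, 0.33 and -0.71, each nearer to 0 than the median of all entries. Of all tested entries, 88.3%, 65.2% and 69.2% were called in these directions. Svbp, partner of the enzymes that remove the C-terminal tyrosine, had means of 75.2, 1.40 and 31.0 FPKM and a log2 fold change of 3.79 ± 0.33 with BYBX against DMSO (limma adjusted p = 4.66e-07). Atat1, the alpha-tubulin acetyltransferase, had 14.6, 9.76 and 11.6 FPKM and did not pass the threshold in any of the 3 comparisons (limma adjusted p of 0.0534, 0.403 and 0.327).

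Of 16 genes of plus-end, depolymerising and severing proteins, 15 were tested, of which 13 fell from GV to MII with DMSO, 7 rose under BYBX relative to DMSO and 9 were below GV under BYBX (medians of -1.71, 0.61 and -1.004, against -1.83, 0.84 and -0.99 for all entries). The shares of all entries were 88.3%, 65.2% and 69.2%. Tacc3, a spindle protein, had means of 171, 1.68 and 34.8 FPKM and a log2 fold change of 3.74 ± 0.29 with BYBX against DMSO (limma adjusted p = 1.75e-07). Katna1, the catalytic subunit of the severing enzyme katanin, had 98.6, 29.8 and 46.1 FPKM, and its change of 0.61 ± 0.28 with BYBX against DMSO did not pass the threshold (limma adjusted p = 0.0718).

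The member of each class with the highest mean of the 3 group means was compared with all other entries over the 7 libraries, as a description. For Tuba4a the nearest patterns of log2(FPKM + 1) were those of 4931428L18Rik, Tmem97 and Oas1c (Pearson r of 0.9996, 0.9996 and 0.9995), and 1009 entries had r over 0.99. For Tubb4b they were Fam118b, Ddx28 and Tmem120b (r of 0.9999, 0.9999 and 0.9999), and 1142 entries had r over 0.99. Tubg1 had only 6 such entries, led by Fam90a1a, Zdhhc13 and Entpd6 (r of 0.997, 0.995 and 0.992). The points form 3 groups, so r mainly reflects the order and spacing of the group means, which the entries share with the scale of the libraries.

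Since BYBX binds G-quadruplexes, the member transcripts were searched for 4 tracts of 3 or more G that stand 1 to 7 bases apart. Tuba4a and Tubb4b held it and the other 8 members did not, against 391 of 2647 tested genes (14.8%) with transcripts of 1598 to 2840 bases, the range of the members. In Tuba4a it was a match of 20 bases in the 3′ UTR. In Tubb4b there were 2 stretches in the coding sequence, each of 27 bases made of overlapping matches, at coding bases 286 to 312 and 417 to 443. They are shown 5′ to 3′ with tracts of 3 or more G in capitals.
Tubb4b first stretch: GGGGctGGGaacaactGGGccaaGGGG
Tubb4b second stretch: GGGtGGGGGGactGGGtctGGGatGGG
These were also the members with the largest fall to MII with DMSO and the largest log2 fold change with BYBX. That was noticed after the values were seen, in 2 of 10 genes, and a match to the pattern is a description of letters, not a measured fold. Tubb4b and Tuba4a were also the most abundant members in GV, with means of 297 and 195 FPKM. The pseudocount bounds the fall of weaker transcripts, and the part of the starting level in these changes was not tested.

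The end of the transcript carries the cytoplasmic polyadenylation element, which governs the tail length of many stored oocyte mRNAs. TTTTAT or TTTTAAT was present in the last 100 bases of 1725 of 8740 tested genes (19.7%). Of the members, Tubb2b held one, TTTTAT, ending 25 bases before the end of the annotated transcript. Tubb3 held TTTTAT ending 88 bases before its end. For the others these letters are not in this window.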

How the data were processed

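Smart-seq2 libraries of GV oocytes, MII oocytes with DMSO and MII oocytes with BYBX were grouped by their labels. Per the methods, the authors trimmed reads with Trim Galore (0.6.7), mapped them to mm10 with HISAT2 (2.2.1), kept uniquely mapped reads and estimated FPKM with Cufflinks (2.2.1) from UCSC gene models. The deposited FPKM were scaled to ERCC spike-in RNA, and batches were brought together through their GV samples, by factors that are not given in the sources used here. Counts, depth and the strand setting are likewise not given there.

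Of 25912 entries, 4 with missing values were left out, and the 9202 whose 3 group means averaged 1 FPKM or more were tested. Values were taken as log2(FPKM + 1) and fitted with limma (3.58.1, R 4.3.3, trend) over all 7 libraries with 4 residual degrees of freedom, two-sided, with Benjamini-Hochberg adjustment and a threshold of 0.05. The procedure was run on simulated data in which few entries changed. Most entries changed between the real libraries, so that run does not cover this setting. Alternatives were another pseudocount, other filters, the same total FPKM, median centring, the replicate block, a minimum fold, summed copies and leaving out each library.

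All members were named, and of each list the 2 most abundant tested genes and the called gene with the largest BYBX change. The members and lists were chosen with earlier results of these data known. Sequences came from GENCODE M21 transcripts (GRCm38). Protein sequences, the sequence of Tubb6 and the ends of the coding sequences are not reported here.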

Additional observations from a re-analysis of the deposited data

How the results depend on the processing

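The fall of the 10 members from GV to MII with DMSO and their rise with BYBX over DMSO kept their direction with a pseudocount of 0.1 FPKM, no filter on level, no intensity trend, only the 2 groups compared, a 2-fold minimum, the replicate block and each library left out. The scale of the libraries did change directions. With every library at the same total FPKM, Tubg1 turned to 0.57 (MII with DMSO against GV), -0.12 (BYBX against DMSO) and 0.45 (BYBX against GV), and Tuba1c to 0.0244 (BYBX against GV). With median centring, Tubg1 turned to 1.05, -0.54 and 0.51 in the same order, Tuba1c to 0.0281 (MII with DMSO against GV) and 0.0676 (BYBX against GV), and Tuba1a to -0.10 (BYBX against DMSO), and 1 member was called higher in MII with DMSO than GV. Members called below GV under BYBX numbered 4 under the same total and 4 under centring. With each library left out in turn, 10 to 10 members were lower in MII with DMSO, 9 to 10 higher with BYBX over DMSO, and 6 to 9 lower with BYBX against GV, the lowest without GV 1. In the fits that leave 1 library in a group, that library was assumed to vary like the others. The replicate block left 10, 9 and 9 members called in the 3 comparisons, the lost call being Tubg1 with BYBX over DMSO (0.77, limma adjusted p = 0.0664). Same-numbered libraries deviated from their group means with correlations of 0.487 and 0.282 (MII with DMSO and GV), -0.601 and -0.348 (BYBX and DMSO) and -0.330 (BYBX and GV, the same value for both pairs). With 2 libraries in a group the deviations mirror each other, so these values cannot decide whether a number marks a shared batch. The numbers were not treated as pairing. With no filter, the calls of Tubg1 with BYBX over DMSO (limma adjusted p = 0.101) and Tubb2a with BYBX against GV (limma adjusted p = 0.0508) were lost. The cause of these changes was not tested. Read depth is unknown, and with 2 or 3 libraries a group small differences such as that of Tubg1 were not resolved.

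At the same total FPKM, the alpha members summed to 248, 79.6 and 179 FPKM in GV, MII with DMSO and MII with BYBX, the beta members to 395 in GV and 37.9 in MII with DMSO, and Tubg1 to 26.9, 41.6 and 37.4. Over all listed genes, the alpha class summed to 589.9, 53.4 and 208 FPKM, the beta class to 88.8 in MII with DMSO and 298 in MII with BYBX, and the gamma class to 155, 42.8 and 83.3, with alpha to beta ratios of 0.709, 0.611 and 0.699. The shares in all listed genes, in GV, MII with DMSO and MII with BYBX, were 20.99%, 20.1% and 22.9% for Tuba1b, 22.5%, 49.5% and 32.2% for Tuba1c, 18.7%, 8.12% and 19.6% for Tubb2a, 5.56%, 1.85% and 5.76% for Tubb2b, 35.8%, 4.01% and 20.9% for Tubb4b, 8.49%, 3.21% and 5.42% for Tubb5, and 19.5%, 4.18% and 12.8% for Tubb6. Tuba4a had 33.2% in GV and 21.7% in MII with BYBX, and Tuba1a 1.23% in GV.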
